A study of Saccharomyces cerevisiae with 18 samples.

Results

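Cyclins are the regulatory subunits that switch the cyclin-dependent kinase Cdc28 of budding yeast on, and each wave of cyclin transcription marks a stage of the cell cycle. The genes described here are the 9 cyclin genes of this kinase and the gene of its inhibitor: the G1 cyclins CLN1, CLN2 and CLN3, the B-type cyclins CLB1 to CLB6, and SIC1. These 10 genes were taken by name from a count table of 7126 genes. All 10 passed the filter on low counts, which left 6239 genes to be tested.

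Polyadenylated RNA was sequenced from 18 cultures of MATa haploid Saccharomyces cerevisiae in the BY4741 background, 3 biological replicates in each of 6 groups. The strains carried a plasmid copy of the transcription factor gene HCM1 that encoded either hcm1-3N, a form with alanine substitutions in its N-terminal phosphodegron that stabilise the protein, or hcm1-8E, a form whose Cdk sites in the transactivation domain were changed to phosphomimetic residues, or wild-type (WT) Hcm1. Each plasmid-borne copy was a centromeric pRS316 construct with the HCM1 promoter and a 3V5 tag. Each strain was grown for 40 hours in synthetic medium without uracil, either with 150 mM LiCl or with no addition (control), and collected in logarithmic growth. Every strain, WT included, also carried his3, ura3, leu2 and lys2 deletions, its chromosomal HCM1 behind the GAL1 promoter with a 3HA tag (shut off in dextrose) and a TEF promoter-driven GFP gene on chromosome VI, so the WT group is not an unmodified BY4741 strain. The cultures were not synchronised. A higher level of a cell cycle transcript may therefore come from more cells in that stage or from more RNA per cell, and these cannot be told apart.

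Cln3 acts first in G1: with Cdc28 it relieves the repressor Whi5 and so frees the transcription factors SBF (Swi4 and Swi6) and MBF (Mbp1 and Swi6), which turn on CLN1 and CLN2 as well as CLB5 and CLB6. Cln1 and Cln2 drive budding and the phosphorylation of Sic1, the stoichiometric inhibitor of Clb kinases whose destruction lets Clb5 and Clb6 start DNA replication. Clb3 and Clb4 follow during S phase and spindle assembly, and Clb1 and Clb2 drive mitosis. CLB1 and CLB2 are transcribed in G2/M by Mcm1 with the forkhead factor Fkh2 and the coactivator Ndd1, and SIC1 at the end of mitosis by Swi5. Hcm1 itself is a forkhead factor of S phase, and CLB3 and CLB4 are on the list of its targets used in the study.

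The stretches of upstream sequence printed here were chosen because they hold the motifs of SBF, MBF and the forkhead factors. All sequences and positions are from the RefSeq copy of the R64 genome, the build to which the reads were aligned, and each is written 5' to 3' on the strand of its gene. The 800 bp before each annotated start were searched on both strands for the SBF motif (SCB, CACGAAA or CGCGAAA), the MBF motif (MCB, ACGCGT) and the forkhead motif (TAAACAA or GTAAACA, which overlap when joined), and overlapping matches of one class were counted as 1 site. Among the windows of 5997 protein-coding genes, 17.1% held an SCB, 7.62% an MCB and 32.6% a forkhead motif. In the stretches that follow, the motif named is in capitals.
CLN2, SCB, chrXVI:67140-67226, minus strand: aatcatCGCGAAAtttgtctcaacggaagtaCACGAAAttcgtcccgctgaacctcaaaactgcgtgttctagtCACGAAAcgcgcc
CLN1, SCB, chrXIII:661844-661873, plus strand: ggtaaagcCACGAAAacaccgcgcgtaaag
CLN1, MCB, chrXIII:662026-662055, plus strand: agcctgcaagagACGCGTtcaaggaagaat
CLB6, MCB, chrVII:706860-706917, minus strand: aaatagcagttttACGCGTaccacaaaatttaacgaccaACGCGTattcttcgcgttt
CLB1, forkhead, chrVII:702996-703025, plus strand: ggcacgaccttTTGTTTACaaccgcccaaa
CLB2, forkhead, chrXVI:770877-770906, plus strand: atttgtataataTGTTTACatattgagccc
CLB4, forkhead, chrXII:561836-561865, plus strand: ctttgcgctttGTAAACActgaaacaaaaa

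CLN2 held 3 SCB sites, between 606 and 532 bp before its start, which only 14 of the 5997 windows (0.233%) matched or exceeded. Its paralog CLN1 held 1 SCB and 1 MCB. CLB6 held 2 MCB sites (as in 0.75% of windows with 2 or more), whereas the letters of the SCB and MCB searched were not in the window of its paralog CLB5. CLB1 and CLB2 each held 1 forkhead site, 622 to 629 bp and 758 to 764 bp before their starts, and CLB4 held 1 at 155 to 161 bp; CLN1, CLN2 and CLB6 held 1 each as well. None of the 3 motifs was in the windows of CLN3, CLB3 and CLB5. SIC1 held an SCB match that ends at the base before its start, and CLB4 held 1 SCB at 692 to 698 bp, beyond its intergenic part. The windows of CLB3, CLB4, CLB5, CLB6 and SIC1 run past the intergenic region into a neighbouring gene, at 286, 275, 582, 606 and 260 bp before the start. A match is a description of letters and not evidence that a factor was bound.

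**Figure D1:**
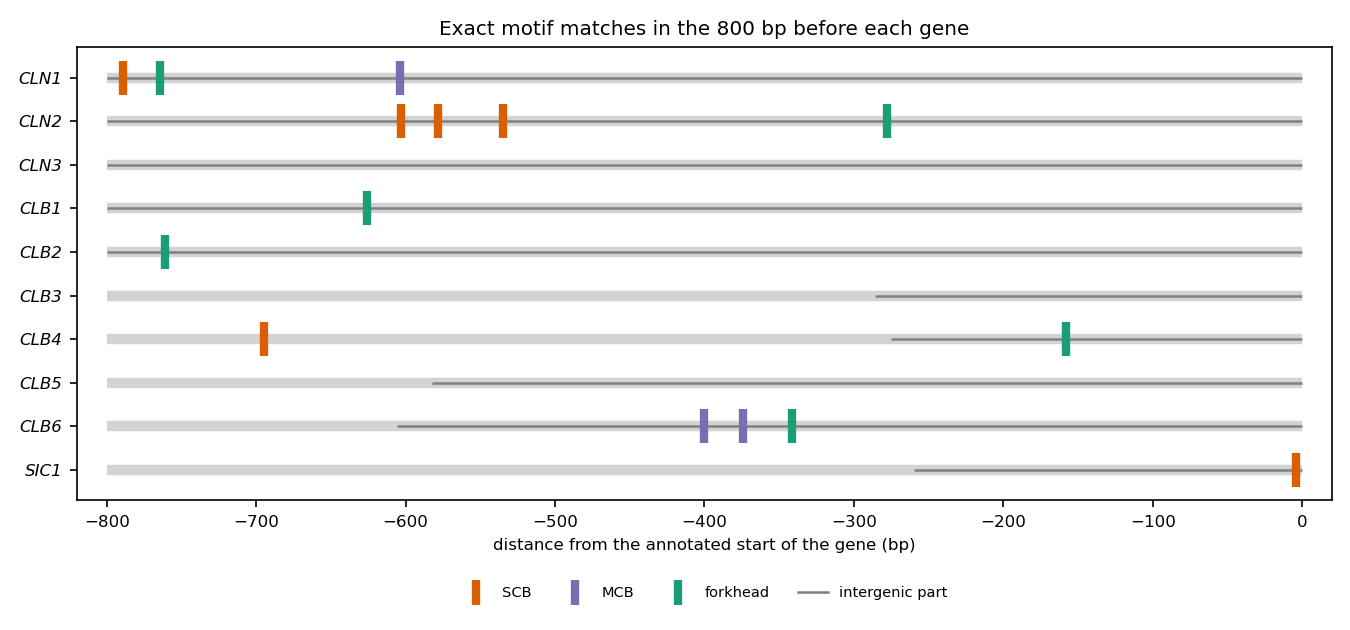
Exact motif matches in the 800 bp before the annotated start of each gene (x axis, distance from the start in bp); the thin dark line is the intergenic part of each window. The 3 SCB sites of CLN2 lie together between 606 and 532 bp, the 2 MCB sites of CLB6 between 403 and 372 bp, and CLN3, CLB3 and CLB5 show no match.

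CLN1 (YMR199W, chrXIII:662644-664284), CLN2 (YPL256C, chrXVI:64977-66614) and CLN3 (YAL040C, chrI:65778-67520) lie apart. The B-type genes include neighbours that converge on each other: CLB1 (YGR108W, chrVII:703636-705051) is 307 bp from CLB6 (YGR109C, chrVII:705359-706501), and CLB2 (YPR119W, chrXVI:771653-773128) is 746 bp from CLB5 (YPR120C, chrXVI:773875-775182). CLB3 (YDL155W) is at chrIV:176773-178056, CLB4 (YLR210W) at chrXII:562008-563390 and SIC1 (YLR079W) at chrXII:286820-287674. Each has a single coding segment with no intron, and none overlapped another annotated gene. The paralogs were 68.8% (CLN1 and CLN2), 69.7% (CLB1 and CLB2), 66.4% (CLB3 and CLB4) and 66.2% (CLB5 and CLB6) identical over their aligned coding bases, and no identical run between paralogs was longer than 17 bp.

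Library totals lay between 18816441 and 21851012 counts. As a check of the labels, HCM1 averaged 251 ± 55.1, 147 ± 14.6 and 399 ± 64.2 CPM (counts scaled to the TMM-adjusted library size) in hcm1-3N, hcm1-8E and WT cells in LiCl, and 244 ± 4.89, 238 ± 16.3 and 299 ± 21.9 CPM in the same strains in control medium (SD, n = 3 each). The counts do not separate the plasmid from the chromosomal copy. URA3, carried by the plasmid in these ura3 cells, averaged 954, 545 and 1320 CPM in LiCl and 564, 575 and 788 CPM in control medium in the same order of strains. MATa-specific genes were high, from STE6 (1609 to 3708 counts) to MFA1 (4865 to 11334) and MFA2 (11928 to 25421). MATalpha-specific genes were lower but not absent: MF(ALPHA)1 had 19 to 513 counts, MF(ALPHA)2 10 to 42, STE3 161 to 366 and SAG1 686 to 1071. Of the meiotic genes, NDT80 had 62 to 142 counts, IME1 170 to 383 and IME2 351 to 696. Replicate 1 stood apart in every group: the summed CPM of 12 stationary-phase and general stress genes was 574, 278 and 388 in its LiCl libraries of hcm1-3N, hcm1-8E and WT, against 1476 to 4224 in the other LiCl libraries, and 1678 to 2255 in its control libraries, against 3326 to 4726 in the others. Replicate 1 also had the highest CPM of CLN2, CLB1, CLB2 and CLB5 in 6 of 6 groups. Results are therefore given with all replicates and without replicate 1, and the part that growth state plays in them was not tested. Same-numbered cultures deviated together, and where a fit with the replicate number as a block changed a call, its adjusted p is given as well.

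The order of the 10 genes by level differed between media (levels between genes are compared in TPM, a unit scaled by transcript length). In control medium CLN3, the gene of the most upstream cyclin, ranked first in all strains, with 68.8 ± 17.2 TPM in hcm1-3N, 79.1 ± 1.48 in hcm1-8E and 65.8 ± 8.64 in WT (SD, n = 3 each), and its libraries did not overlap those of the next gene. In LiCl, CLB1 ranked first in hcm1-3N (92.4 ± 52.2 TPM) and hcm1-8E (62.8 ± 17.0 TPM) and second after CLN3 in WT (66.2 ± 20.8 TPM), although in each of these groups the CLB1 and CLN3 libraries overlapped. In control medium CLN2, CLB1, SIC1, CLN1 and CLB3 took the ranks after CLN3, mostly with overlapping neighbours, and CLB2 came next. In LiCl SIC1 came after CLB1 and CLN3 in each strain, and CLB2 ranked above CLN1 in hcm1-3N and above both CLN1 and CLN2 in hcm1-8E, with overlapping libraries. CLB4 and CLB5 were lower still: over all libraries CLB4 ranged from 7.33 to 16.2 TPM and CLB5 from 6.71 to 14.1 TPM. CLB6 was the lowest in every group and never overlapped the gene above it, with 0.708 to 2.07 TPM and 19 to 67 counts per library.

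**Figure D2:**
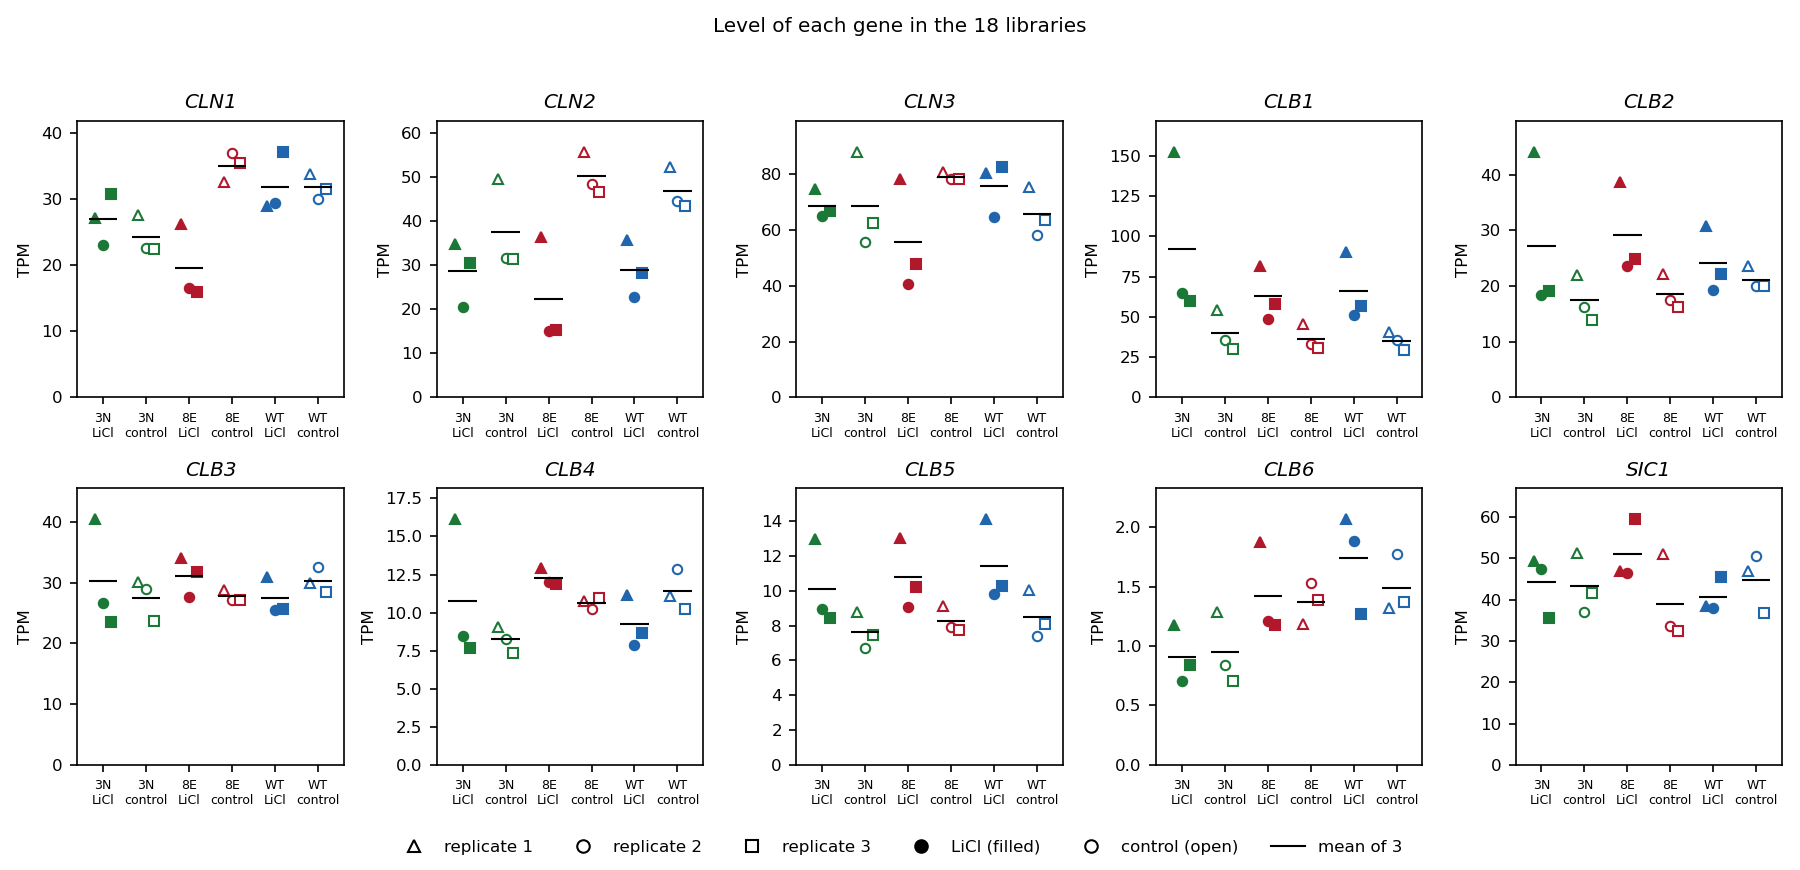
TPM (y axis, from 0) of each gene in the 18 libraries, LiCl filled and control open, with the symbol giving the replicate and the bar the mean of 3. The hcm1-8E libraries in LiCl lie low for CLN1, CLN2 and CLN3 in replicates 2 and 3 (CLN1 at 16.5 and 15.9 TPM), and the mean of CLB1 lies higher in LiCl than in control medium in each strain.

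Within strains and with all replicates, edgeR called the G1 cyclins lower in LiCl in hcm1-8E cells and not in hcm1-3N or WT cells (the test of that difference is given with the strains), and CLN2 was lower in LiCl when the strains were averaged. CLN1 had 52.2, 32.0 and 30.7 CPM in the hcm1-8E replicates in LiCl, against 69.1, 77.6 and 74.7 CPM in control medium. The groups did not overlap, and replicates 2 and 3 were the low ones. The log2 fold change was -0.95 ± 0.18 (SE, edgeR adjusted p = 0.00183). In hcm1-3N cells CLN1 had 54.1, 48.8 and 68.2 CPM in LiCl, against 57.1, 47.5 and 49.2 CPM in control medium, and in WT cells 60.8, 61.8 and 76.8 CPM, against 67.2, 60.2 and 67.0 CPM. Both pairs of groups overlapped, with log2 fold changes of 0.15 and 0.036.

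CLN2, the most abundant G1 partner after CLN3 in control medium, had 72.4, 29.1 and 29.5 CPM in hcm1-8E in LiCl, against 118, 101 and 98.0 CPM in control medium. Again the groups did not overlap and replicates 2 and 3 were the low ones, with a log2 fold change of -1.27 ± 0.32 (SE, edgeR adjusted p = 0.00861). WT cells had 75.2, 47.8 and 58.1 CPM in LiCl, against 104, 89.3 and 92.3 CPM in control medium, without overlap. The WT fold change of -0.65 ± 0.31 (SE, edgeR adjusted p = 0.127) missed the threshold, and with the replicate block it passed (edgeR adjusted p = 0.0106). In hcm1-3N CLN2 had 69.4, 43.1 and 67.3 CPM in LiCl, against 102, 66.3 and 68.9 CPM in control medium. Each LiCl library was below its same-numbered control, but the groups overlapped, and the log2 fold change of -0.40 ± 0.31 (SE, edgeR adjusted p = 0.389) was not called.

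CLN3 fell in hcm1-8E cells, with 166, 83.5 and 98.4 CPM in LiCl, against 182, 175 and 176 CPM in control medium. The 3 control values were almost equal, and in LiCl replicate 1 stayed near them while replicates 2 and 3 were low. The log2 fold change was -0.61 ± 0.21 (SE, edgeR adjusted p = 0.0427). In WT, CLN3 had 180.0, 144 and 181 CPM in LiCl, against 159, 124 and 144 CPM, higher in 3 of 3 same-numbered pairs but not called (log2 fold change 0.24). In hcm1-3N it had 158, 146 and 157 CPM in LiCl, against 194, 124 and 146 CPM in control medium, with overlap and a log2 fold change of -0.0067. Without replicate 1 the hcm1-8E differences in LiCl were larger: -1.30 (adjusted p = 1.01e-05) for CLN1, -1.78 (adjusted p = 1.45e-06) for CLN2 and -0.96 (adjusted p = 3.86e-05) for CLN3 (edgeR). With single libraries left out, edgeR kept the CLN1 and CLN2 calls in 6 of 6 fits, and that of CLN3 only without replicate 1 of hcm1-8E in LiCl (adjusted p from 0.00103 to 0.155).

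CLB1 and CLB2, the mitotic pair, were higher in LiCl when the strains were averaged, and CLB1 was also called within hcm1-3N and WT. CLB1 had 263, 119 and 114 CPM in hcm1-3N in LiCl, against 96.5, 64.6 and 57.3 CPM in control medium, a log2 fold change of 1.18 ± 0.34 (SE, edgeR adjusted p = 0.0403). In WT it had 163, 92.9 and 102 CPM in LiCl, against 70.0, 61.4 and 54.4 CPM in control medium, a log2 fold change of 0.95 ± 0.34 (SE, edgeR adjusted p = 0.0457). Neither pair of groups overlapped, and replicate 1 was the highest library on both sides. In hcm1-8E, CLB1 had 140.3, 81.3 and 96.9 CPM in LiCl, against 83.5, 60.1 and 55.3 CPM in control medium. Only the highest control library reached the lowest LiCl library, and the log2 fold change of 0.68 ± 0.33 (SE, edgeR adjusted p = 0.141) was not called, whereas the replicate block called it (edgeR adjusted p = 0.00116). Without replicate 1 the changes were 0.91 (adjusted p = 5.41e-05) in hcm1-3N, 0.61 (adjusted p = 0.000568) in hcm1-8E and 0.72 (adjusted p = 0.000145) in WT (edgeR). With single libraries left out, edgeR kept the CLB1 call in 2 of 6 fits in hcm1-3N, those without replicate 1 of the control or replicate 3 in LiCl (adjusted p from 0.0181 to 0.232), and in 1 of 6 in WT, that without replicate 2 in LiCl (0.042 to 0.229).

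CLB2 had 79.2, 35.0 and 38.0 CPM in hcm1-3N in LiCl, against 41.1, 30.9 and 27.4 CPM in control medium, 69.2, 41.3 and 43.4 CPM in hcm1-8E in LiCl, against 42.3, 33.1 and 30.7 CPM, and 58.3, 36.3 and 41.2 CPM in WT in LiCl, against 42.1, 35.9 and 38.1 CPM. Every same-numbered pair was higher in LiCl, but the groups overlapped in each strain, and replicate 1 was the highest library in both media. The log2 fold changes were 0.62, 0.54 and 0.23 in that order of strains, and none was called by edgeR without the block (adjusted p = 0.175, 0.192 and 0.595). With the block the mutants passed, at edgeR adjusted p = 0.00694 in hcm1-3N and 0.00819 in hcm1-8E, and WT did not (0.286).

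Of the S-phase pair, CLB5 was called higher in LiCl when the strains were averaged and CLB6 was not. CLB5 had 20.7, 15.1 and 14.9 CPM in hcm1-3N in LiCl, against 14.4, 11.2 and 13.0 CPM in control medium, 20.7, 14.0 and 15.8 CPM in hcm1-8E, against 15.4, 13.3 and 13.1 CPM, and 23.7, 16.4 and 17.0 CPM in WT, against 15.9, 11.9 and 13.7 CPM. All 9 same-numbered pairs were higher in LiCl, and in hcm1-3N and WT the groups did not overlap. The log2 fold changes of 0.39, 0.27 and 0.46 missed the threshold within strains (edgeR adjusted p = 0.176, 0.295 and 0.0794) and passed it with the block (0.00604, 0.0347 and 0.00116). CLB6 was not called in any strain, with 1.63, 1.04 and 1.30 CPM in hcm1-3N in LiCl, against 1.85, 1.23 and 1.08 CPM in control medium, and log2 fold changes of -0.073, -0.05 and 0.26. Their 95% intervals, from -0.30 to 0.83 in WT and from -0.69 to 0.54 in hcm1-3N, leave room for changes as large as that of CLB5.

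CLB3 and CLB4, the genes on the Hcm1 target list, were not called in any strain with all 3 replicates. CLB3 ranged from 40.9 to 63.2 CPM in the LiCl libraries and from 40.6 to 51.0 CPM in control, with log2 fold changes of 0.12, 0.059 and -0.11 in hcm1-3N, hcm1-8E and WT. CLB4 had 27.2, 15.0 and 14.3 CPM in hcm1-3N in LiCl, against 15.8, 14.7 and 13.6 CPM in control medium, where replicate 1 in LiCl alone stood above the rest. Its log2 fold change was 0.36, against 0.10 in hcm1-8E and -0.27 in WT (edgeR adjusted p = 0.237, 0.739 and 0.337). Without replicate 1, CLB4 was called lower in WT in LiCl (log2 fold change -0.50, edgeR adjusted p = 0.00346).

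SIC1, the inhibitor gene, was not called in any comparison with all 3 replicates. It had 51.3, 52.3 and 41.2 CPM in hcm1-3N in LiCl, against 55.2, 40.6 and 47.7 CPM in control medium, 48.8, 46.9 and 60.0 CPM in hcm1-8E, against 56.2, 36.8 and 35.7 CPM, and 42.1, 41.4 and 49.0 CPM in WT, against 48.6, 52.9 and 40.7 CPM. All 3 pairs of groups overlapped, and the log2 fold changes were 0.014, 0.27 and -0.10. The 95% interval ran from -0.12 to 0.67 in hcm1-8E, which includes changes as large as those of CLB2. Without replicate 1, SIC1 was called higher in hcm1-8E in LiCl (log2 fold change 0.54, edgeR adjusted p = 0.0108), and its replicate 1 control library, at 56.2 CPM, was the highest of the hcm1-8E controls.

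Counted over the members, edgeR called 1 of 10 within hcm1-3N (CLB1, higher), where 10.3% of all genes were called, 5.16% higher and 5.18% lower. Within hcm1-8E it called 3 of 10 (CLN1, CLN2 and CLN3, all lower), against 29.5% of all genes, 17.1% higher and 12.5% lower. Within WT it called 1 of 10 (CLB1, higher), against 30.4% of all genes, 16.5% higher and 13.9% lower. With the replicate block the counts were 3, 6 and 3 for hcm1-3N, hcm1-8E and WT, against 38.1%, 48.1% and 49% of all genes, and without replicate 1 they were 2, 6 and 4, against 31.2%, 47.3% and 47.9% of all genes. The LiCl and control groups did not overlap in CPM for 2, 3 and 3 of 10 members in that order of strains. Over all genes the share without overlap was 31.3%, 44.5% and 45.3%, so the members did not exceed it. Averaged over the strains, LiCl changed 4 of 10: CLB1 with log2 fold change 0.94 ± 0.19 (SE, edgeR adjusted p = 0.00112), CLB2 with 0.46 (adjusted p = 0.0369), CLB5 with 0.37 (adjusted p = 0.0103) and CLN2 with -0.78 (adjusted p = 0.00248). Of all genes 52.5% were called in that comparison, 28.5% higher and 24% lower, and the share among the 10 members lay below it. The median log2 fold change of the members was 0.13 in hcm1-3N, 0.08 in hcm1-8E and 0.13 in WT, beside 0.01, 0.03 and 0.02 over all genes. CLN1, at -0.25, missed the threshold (edgeR adjusted p = 0.0551) and passed it with the block (0.025). CLN2 and CLB1 kept their calls in all 18 fits that left out a single library, CLB5 did so too, and CLB2 in 7 of 18 (adjusted p from 0.0179 to 0.0993).

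**Figure D3:**
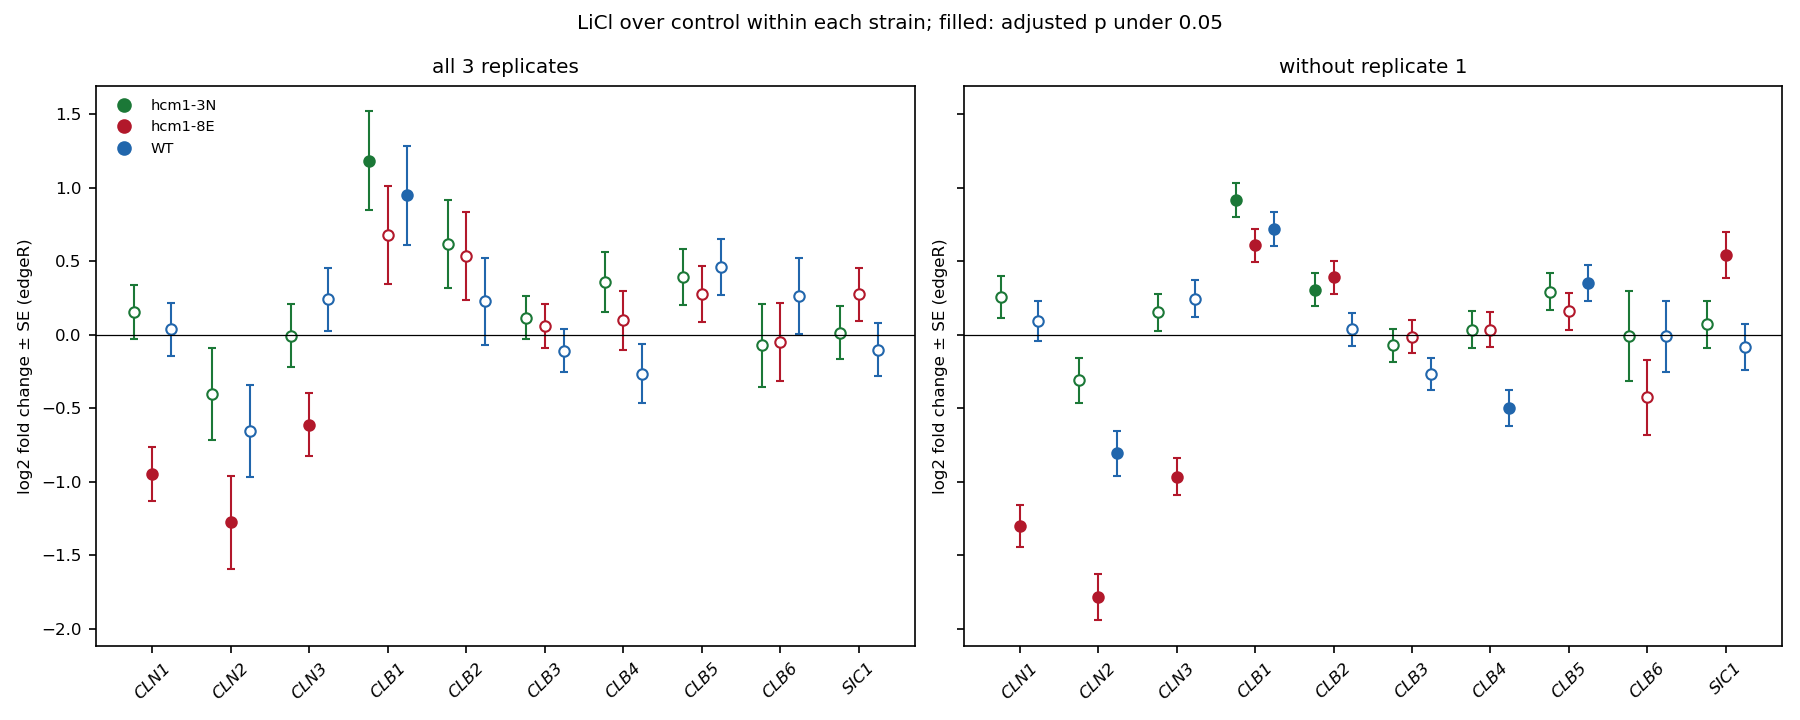
Log2 fold change of LiCl over control for each gene within each strain (y axis, edgeR estimate ± SE), with all 3 replicates on the left and without replicate 1 on the right; filled points have an adjusted p under 0.05. CLN1, CLN2 and CLN3 are the lowest points in hcm1-8E (-0.95, -1.27 and -0.61 with all replicates), and CLB1 is above 0 in each strain.

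Set against each other within a library, the mitotic pair lay below the G1 pair in control medium and above it in LiCl in each strain. The summed TPM of CLB1 and CLB2 over that of CLN1 and CLN2 had log2 ratios of 1.67, 0.94 and 0.36 in hcm1-3N in LiCl, against -0.021, -0.062 and -0.29 in control medium. The same ratio was 0.94, 1.19 and 1.41 in hcm1-8E in LiCl, against -0.38, -0.75 and -0.82, and 0.90, 0.43 and 0.28 in WT in LiCl, against -0.42, -0.43 and -0.60. No LiCl library overlapped a control library, in any strain: every LiCl ratio was above 0 and every control ratio below it. The ratios are a description with no test, built from the values given before.

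The CLN2 to CLN1 ratio averaged 0.056 ± 0.28 in hcm1-3N in LiCl and 0.61 ± 0.21 in control medium, 0.10 ± 0.33 and 0.52 ± 0.22 in hcm1-8E, and -0.15 ± 0.40 and 0.55 ± 0.081 in WT (log2, SD, n = 3 each), and replicate 1 was the highest in each group; the media overlapped in hcm1-8E and not in hcm1-3N or WT. The CLB2 to CLB1 ratio was tighter between replicates. It averaged -1.75 ± 0.10 in hcm1-3N in LiCl and -1.18 ± 0.10 in control medium, and -1.44 ± 0.10 in LiCl and -0.73 ± 0.14 in control medium in WT, without overlap in either strain. In hcm1-8E it was -1.11 ± 0.10 in LiCl and -0.96 ± 0.074 in control medium, and these overlapped. In LiCl the 3 strains did not overlap in this ratio, hcm1-3N being the lowest and hcm1-8E the highest. The strains did not overlap in control medium either, where the order differed. There hcm1-3N was the lowest (-1.29 to -1.12), hcm1-8E came next (-1.04 to -0.91) and WT was the highest (-0.83 to -0.57). The CLB6 to CLB5 ratio overlapped between media in all 3 strains. The CLB4 to CLB3 ratio averaged -1.54 ± 0.18 in hcm1-3N in LiCl and -1.74 ± 0.056 in control medium, -1.34 ± 0.12 and -1.38 ± 0.061 in hcm1-8E, and -1.58 ± 0.11 and -1.41 ± 0.07 in WT; it was higher in LiCl in hcm1-3N and lower in LiCl in WT, without overlap, and overlapped in hcm1-8E. The SIC1 to CLB5 ratio in WT was 1.44, 1.95 and 2.14 in LiCl, against 2.23, 2.77 and 2.18 in control medium, and the media did not overlap in WT or in hcm1-3N but did in hcm1-8E.

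**Figure D4:**
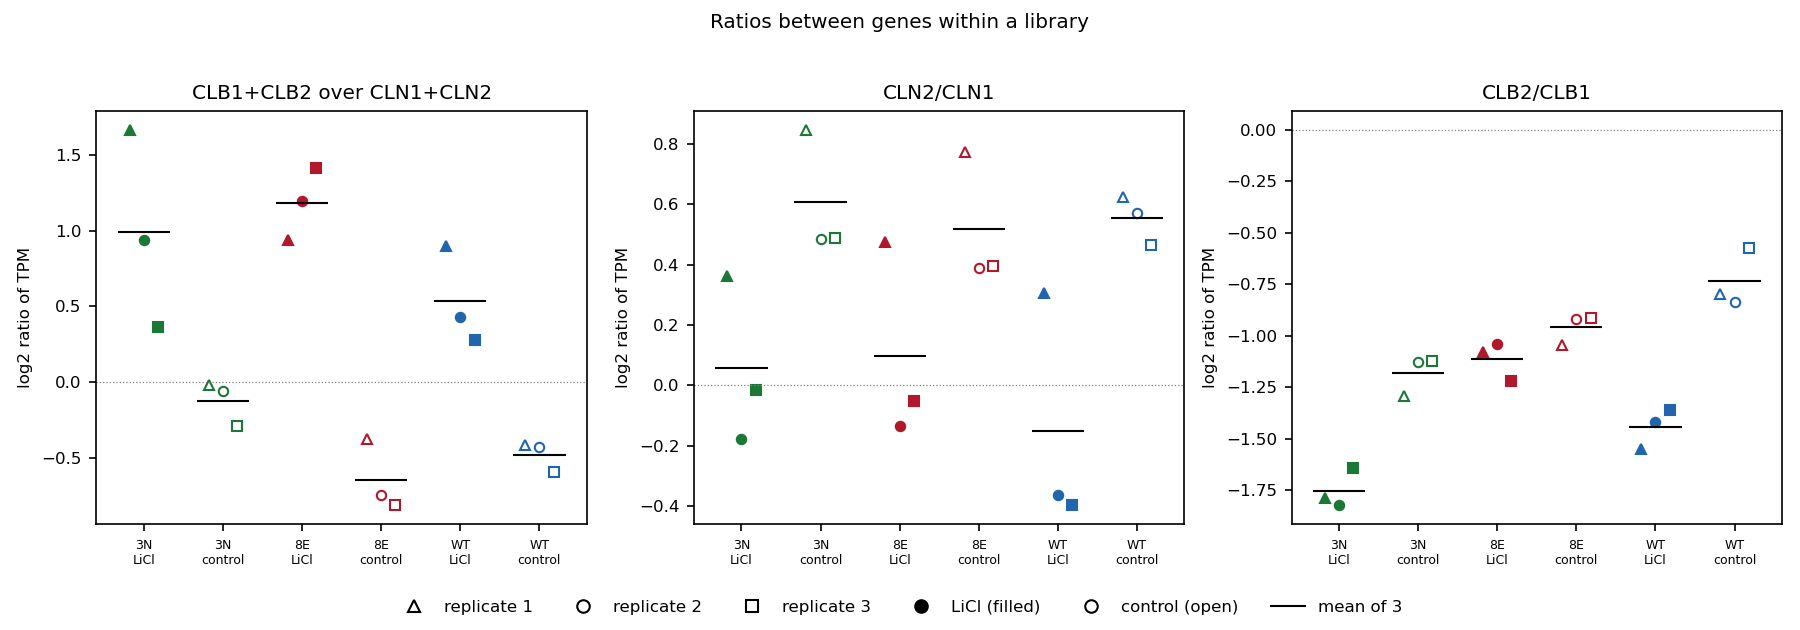
Log2 ratios of TPM within each library (y axis) for the mitotic over the G1 pair, CLN2 over CLN1 and CLB2 over CLB1, LiCl filled and control open, symbols for replicates and bars for the mean of 3. The mitotic over G1 ratio is above 0 in all 9 LiCl libraries and below 0 in all 9 control libraries.

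Between strains in control medium no cyclin gene nor SIC1 was called. The count was 0 of 10 for hcm1-3N against WT, where 7.68% of all genes were called, 0 for hcm1-8E against WT (0.0641% of all genes) and 0 for hcm1-3N against hcm1-8E (0.0641%). With unadjusted p under 0.05 edgeR counted 1, 0 and 1 members, against 23.4%, 12.5% and 12.8% of all genes, and DESeq2 and the block called none. CLN1 was lowest in hcm1-3N, with 57.1, 47.5 and 49.2 CPM, against 69.1, 77.6 and 74.7 CPM in hcm1-8E and 67.2, 60.2 and 67.0 CPM in WT, and its libraries overlapped neither. The hcm1-3N over hcm1-8E log2 fold change was -0.53 ± 0.18 (SE, edgeR adjusted p = 0.233). CLB4, an Hcm1 target gene, had 15.8, 14.7 and 13.6 CPM in hcm1-3N, against 18.5, 21.8 and 18.4 CPM in WT, again without overlap, and its log2 fold change was -0.41 ± 0.20 (SE, edgeR adjusted p = 0.236). Between strains in control medium 2 of 10 members did not overlap in hcm1-3N against WT and 2 in hcm1-3N against hcm1-8E. In hcm1-8E against WT 2 did not overlap, CLN1 and CLN3, both higher in hcm1-8E and not called (log2 fold changes 0.19 and 0.32). The share over all genes was 35.4%, 26.7% and 25.3% in that order, so lack of overlap does not set these members apart. Without replicate 1 edgeR called 3 members lower in hcm1-3N than in WT (CLB2 -0.35, CLB4 -0.52 and CLB6 -0.96) and 3 lower in hcm1-3N than in hcm1-8E (CLN1 -0.65, CLN2 -0.55 and CLB4 -0.40), where 17.8% and 11.2% of all genes were called. With replicate 2 or replicate 3 left out instead, edgeR called 0 genes in both comparisons.

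In LiCl the G1 cyclins of hcm1-8E averaged below those of the other strains, and whether this was called depended on replicate 1, on the block and on the test. With all replicates edgeR called 0 of 10 members in hcm1-3N against WT (0.721% of all genes called), 0 in hcm1-8E against WT (0.0321%) and 0 in hcm1-3N against hcm1-8E (3.06%), with 1, 2 and 1 members at an unadjusted p under 0.05, against 8.62%, 5.05% and 14.5% of all genes. CLN1 had 52.2, 32.0 and 30.7 CPM in hcm1-8E, against 60.8, 61.8 and 76.8 CPM in WT, without overlap, and a log2 fold change of -0.79 ± 0.18 (SE, edgeR adjusted p = 0.297, and 0.0565 with the block). Ranked by p over all genes it was number 12. CLN1 was the only member without overlap between hcm1-8E and WT in LiCl, where 7.37% of all genes did not overlap. In hcm1-3N it had 54.1, 48.8 and 68.2 CPM, of which 1 of 3 fell within the hcm1-8E range, and the hcm1-3N over hcm1-8E log2 fold change of 0.57 ± 0.18 (SE, edgeR adjusted p = 0.118) was called with the block (0.0423), by DESeq2 (adjusted p = 0.0484) and by edgeR without replicate 1 of hcm1-8E in LiCl (0.88 on the log2 scale, adjusted p = 0.00575). CLB1 had 263, 119 and 114 CPM in hcm1-3N, against 140.3, 81.3 and 96.9 CPM in hcm1-8E. The groups overlapped, and 3 of 3 same-numbered pairs were higher in the 3N form. The log2 fold change of 0.64 ± 0.33 (SE, edgeR adjusted p = 0.406) was called with the block (edgeR adjusted p = 0.0182). With single libraries left out, edgeR called this CLB1 difference in 0 of 6 fits. Without replicate 1 of hcm1-3N in LiCl it fell to 0.13. Between the mutants in LiCl 0 of 10 members lacked overlap, where 13.1% of all genes did not overlap. With the block, then, 2 of 10 members were called between the mutants in LiCl, both higher in hcm1-3N, against 8.49% of all genes.

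Without replicate 1, which leaves only replicates 2 and 3 in each group, the contrast was sharper. All 3 G1 cyclin genes were lower in hcm1-8E than in WT in LiCl, with log2 fold changes of -1.15 (adjusted p = 0.000228) for CLN1, -0.86 (adjusted p = 0.00571) for CLN2 and -0.84 (adjusted p = 0.00119) for CLN3 (edgeR), where 2.39% of all genes were called. The same 3 genes in hcm1-3N exceeded their hcm1-8E levels by 0.91, 0.92 and 0.75 on the log2 scale, together with CLB1 (0.39), while CLB4 was lower (-0.40), where 13.9% of all genes were called. Between hcm1-3N and WT in LiCl no member was called in either fit. With replicate 2 or replicate 3 left out instead, edgeR called 0 genes in any comparison of strains in LiCl. Among the values that moved with these results are those of the stress genes, of HCM1 itself and of the plasmid-borne URA3 (545 CPM in hcm1-8E in LiCl, against 954 CPM in hcm1-3N and 1320 CPM in WT): the hcm1-8E libraries in LiCl had summed stress CPM of 278, 1476 and 2921 in replicates 1 to 3, against 388, 3766 and 3464 in WT, and HCM1 was lower in hcm1-8E than in WT in LiCl (log2 fold change -1.45, edgeR adjusted p = 0.000382). Their part in the cyclin differences was not tested.

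CLB6 was the member nearest to a call between hcm1-3N and WT in LiCl. It had 1.63, 1.04 and 1.30 CPM in hcm1-3N, against 2.60, 1.64 and 1.58 CPM in hcm1-8E and 3.03, 2.75 and 1.82 CPM in WT. The hcm1-3N and WT groups did not overlap, with a log2 fold change of -0.93 ± 0.27 (SE, edgeR adjusted p = 0.162, and 0.0519 with the block), while those of the mutants did. CLB6 was the only member without overlap between hcm1-3N and WT in LiCl, where 11.2% of all genes did not overlap. The CLB6 values rest on 23 to 67 counts per library.

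**Figure D5:**
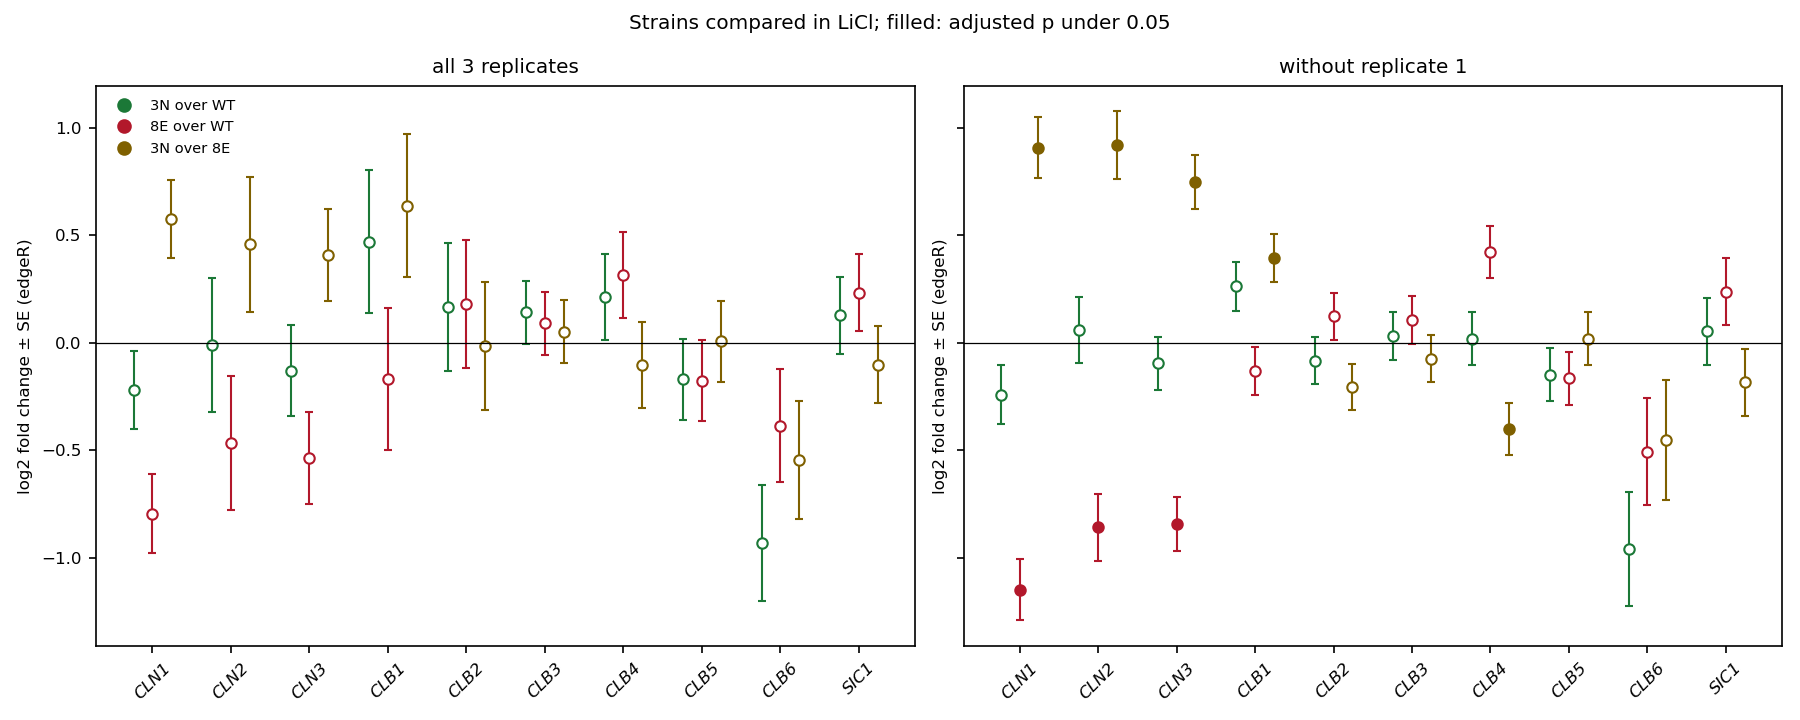
Log2 fold change between strains in LiCl for each gene (y axis, edgeR estimate ± SE), with all 3 replicates on the left and without replicate 1 on the right; filled points have an adjusted p under 0.05. No point is filled on the left, and on the right CLN1, CLN2 and CLN3 are below 0 for hcm1-8E over WT (-1.15, -0.86 and -0.84) and above 0 for hcm1-3N over hcm1-8E (0.91, 0.92 and 0.75).

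Whether the LiCl response itself differed between strains was tested as an interaction. With all replicates edgeR called 0 genes, and hence 0 members, in each of the 3 comparisons of responses (0% of all genes in hcm1-3N against WT, 0% in hcm1-8E against WT and 0% in hcm1-3N against hcm1-8E), while 705, 643 and 561 genes had an unadjusted p under 0.05, the block called 40, 21 and 12 genes and DESeq2 130, 85 and 45. In hcm1-3N minus WT the nearest member was CLB4, at 0.62 ± 0.28 on the log2 scale (SE, edgeR adjusted p = 0.429), and no alternative called it. CLN1 was the nearest member in both comparisons with hcm1-8E. Its response in hcm1-8E minus that in WT was -0.98 ± 0.26 (SE, edgeR adjusted p = 0.3) on the log2 scale, and that in hcm1-3N minus hcm1-8E was 1.10 ± 0.26 (SE, edgeR adjusted p = 0.192). DESeq2 called both (adjusted p = 0.0243 and 0.0165), and the block did not (edgeR adjusted p = 0.0861 and 0.0645). Leaving out only replicate 1 of hcm1-8E in LiCl, edgeR called both as well, at -1.26 (adjusted p = 0.0186) and 1.40 (adjusted p = 0.00622). CLN3 responded in opposite directions, down in hcm1-8E and up in WT in 3 of 3 pairs each, and the difference of -0.85 ± 0.30 (SE, edgeR adjusted p = 0.357) was not called. Without replicate 1 edgeR called CLN1, CLN2 and CLN3 in both comparisons with hcm1-8E, at -1.39, -0.98 and -1.21 for hcm1-8E minus WT and 1.55, 1.47 and 1.12 for hcm1-3N minus hcm1-8E, where 5.88% and 9.38% of all genes were called. With replicate 2 or replicate 3 left out instead, edgeR called 0 genes in each interaction.

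The genes around the cyclins give the setting, in the LiCl comparison averaged over strains, in which the median of all genes was 0.02 (log2) and 52.5% of all genes were called, 28.5% higher and 24% lower. Of 17 genes of the CLB2 cluster, which share Mcm1 and Fkh2 control with CLB1 and CLB2, 11 rose and 1 fell, with a median of 0.26, CLB2 itself being among the 11. Among those that rose were MYO1, the myosin heavy chain of the bud neck (1.09), BUD4, which marks the axial bud site (0.98), and PMP1, a regulator of the plasma membrane proton pump (0.51), while MOB1 of the mitotic exit network fell (-0.30). Of 18 SBF and MBF targets, 6 rose and 4 fell, near the share of all genes, with a median of 0.20. RNR1, the large subunit of ribonucleotide reductase (1.48), and the cohesin gene MCD1 (0.91) rose, and CDC21, thymidylate synthase (-0.57), and the DNA ligase gene CDC9 (-0.34) fell.

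Of 11 regulators of CLN1 and CLN2 transcription, 3 rose and 3 fell, also near the share of all genes: MBP1 (0.54), the repressor gene WHI5 (0.50) and SWI6 (0.16) rose, and STB1, whose product binds Swi6 (-0.76), BCK2, an activator of G1 transcription (-0.30), and MSA2 (-0.63) fell. MSA1, the paralog of MSA2, was called lower within hcm1-8E, as was HCM1 (log2 fold changes -0.69 and -0.70). Within WT, HCM1 was called higher in LiCl (log2 fold change 0.42, edgeR adjusted p = 0.0375). Of the kinase and its modifiers, 3 of 12 rose and 3 fell, again near the share of all genes. ZDS2 (0.42), ZDS1 (0.31) and HSL1 (0.29) rose, and CDC28 itself (-0.35), its small subunit CKS1 (-0.42) and the activating kinase CAK1 (-0.23) fell.

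Of 21 genes that turn the cyclins and Sic1 over, 6 rose and 5 fell, near the share of all genes. Of the anaphase-promoting complex, the subunit genes APC1 (0.30), MND2 (0.38), CDC23 (0.28), CDC16 (0.30) and APC4 (0.17) rose and CDC27 fell (-0.21), while the activator gene CDC20 rose (0.24). The activator gene CDH1 (-0.30) and the SCF ligase genes HRT1 (-0.32), CDC53 (-0.28) and CDC4 (-0.20) fell. PHO85, the other cyclin-dependent kinase with G1 cyclins, fell (-0.73), as did 5 of its cyclin genes, while PCL5 (0.73) and PCL1 (0.45) rose, 2 higher and 6 lower of 11. Of the transcription factors SWI5 rose (0.42) and NDD1 (-0.36) and RME1 (-0.31) fell, of 11. Of 12 stress genes only HSP12 passed (0.97), with a list median of -0.25.

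In hcm1-3N against WT in control medium, where 7.68% of all genes were called, 1 gene of the CLB2 cluster was higher (MYO1, 0.44) and 3 were lower (CDC20, HST3 and KIN3, -0.64, -0.73 and -0.66). Of the G1 regulators WHI3 was higher (0.70) and BCK2 (-0.43) and STB1 (-0.64) lower, 0 of the 18 SBF and MBF targets were higher and 3 lower, and of the stress genes HSP26 was higher (1.65). The Pho85 cyclin genes PCL2 (-0.77), which is also among those targets, and PCL5 (-0.41) and the SCF partner gene CDC34 (-0.41) were lower. In LiCl, HCM1 was lower in hcm1-3N than in WT (-0.67) and above the hcm1-8E level (0.77), PCL5 was lower in hcm1-3N than in either (-0.58 and -0.68), and HSP26 (2.04) and HSP12 (1.82) exceeded their hcm1-8E levels.

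Over the 18 libraries, the highest correlations between members were within the G1 class and within the B-type class (Pearson r of log2 CPM, a description without a test, over libraries that share groups and replicate number). CLB1 and CLB2 had r = 0.84, and 0.97 once each group's mean was removed. CLB5 went with both (0.84 with CLB1 and 0.86 with CLB2). CLN1 went with CLN3 (0.82) and CLN2 (0.79), and CLB3 with CLB4 (0.81). Between a G1 and a B-type gene r ran from -0.25 (CLN2 with CLB1) to 0.35 (CLN1 with CLB6), whereas after the group means were removed CLN2 and CLB1 had 0.72, and replicate 1 was the highest library of every group for both. SIC1 had no r above 0.33 with any member. Of all tested genes, the nearest in pattern were MSA1 for both CLN1 (0.83) and CLN3 (0.90), the osmosensor gene SHO1 for CLN2 (0.95), the helicase gene RRM3 (0.95) and the origin recognition gene ORC1 (0.95) for CLB1, RRN11 (0.96) and ORC3 (0.95) for CLB2, SPC42 of the spindle pole body for CLB3 (0.87), the Mediator gene RGR1 for CLB4 (0.90), CNS1 for CLB5 (0.97), MCM5 of the replicative helicase for CLB6 (0.84) and the mitochondrial ribosomal gene IMG2 for SIC1 (0.85). CLB5 had 265 genes with r above 0.9 and CLB1 and CLB2 125 each, while CLN1, CLB3, CLB4, CLB6 and SIC1 had none.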

How the data were processed

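Cultures, RNA and libraries were as described for the 6 groups above. Per the labels and the study's methods, the authors aligned strand-specific paired-end reads to R64 and counted fragments per gene with featureCounts. They deposited raw counts and TPM per gene and library. The strand setting of the counting is not given in the sources used here. The members and all gene lists were chosen with earlier results of these data known. Counts were tested with edgeR 4.0.16 in R 4.3.3 (TMM factors, default filter on low counts, quasi-likelihood F-test over all 6 groups, 12 residual degrees of freedom, Benjamini-Hochberg adjustment over 6239 genes, threshold 0.05). SE is the size of the log2 fold change divided by the square root of F, and intervals are 95%. CPM values are TMM-scaled, and correlations used log2 CPM with a prior count of 2. Named list genes are up to 3 per direction with the smallest adjusted p. As exceptions, all called genes of the turnover list are named, and MSA1 is named as the paralog of MSA2. Same-numbered replicates were checked for pairing: their deviations from group means correlated at 0.24 to 0.89 in every compared pair, and the labels give the shared numbers. Alternatives were RLE factors, no filter, DESeq2 1.42.0, a replicate block, limma 3.58.1 on log2(TPM + 1) and log2(TPM + 0.1), and leaving libraries out. The scripts were tested on simulated data. A planned motif search and a gene list that depend on an item withheld here are not reported.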

Additional observations from a re-analysis of the deposited data

Results flagged for a closer look

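In these results the effect ran in opposite directions in every sample of the 2 settings compared, and the difference itself was tested as an interaction that edgeR did not call. For CLN1, the hcm1-8E over WT log2 difference was -1.32 to -0.22 over the same-numbered pairs in LiCl and 0.039 to 0.36 in control medium, an interaction of -0.98 ± 0.26 (SE, edgeR adjusted p = 0.300, and 0.0861 with the block). The hcm1-3N over hcm1-8E difference of CLN1 was 0.050 to 1.15 in LiCl and -0.71 to -0.28 in control medium, an interaction of 1.10 ± 0.26 (edgeR adjusted p = 0.192, and 0.0645 with the block). For CLN2, hcm1-8E over WT was -0.97 to -0.054 in LiCl and 0.086 to 0.19 in control medium, with an interaction of -0.62 ± 0.44 (edgeR adjusted p = 0.707). The CLN3 response to LiCl was -1.06 to -0.13 in hcm1-8E and 0.18 to 0.33 in WT, and the same interaction read as hcm1-8E over WT was -0.88 to -0.12 in LiCl and 0.19 to 0.49 in control medium. Its value was -0.85 ± 0.30 in both readings (edgeR adjusted p = 0.357, and 0.0730 with the block).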

How the results depend on the processing

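Over the counts of members called, 182 values under the alternatives stayed within 1.5 times the reported count and 43 moved, and over the single members 347 kept their side of the threshold, 33 gained and 48 lost it, and 0 reversed. With the replicate block, edgeR called, for LiCl against control, 3 members in hcm1-3N, 6 in hcm1-8E and 3 in WT, and 2 between the mutants in LiCl. The block also called CLN1 in the mean of strains and changed no other call. Without the filter on low counts, and with limma on log2(TPM + 1) or log2(TPM + 0.1), 0 members were called in WT, and with either limma fit 0 in hcm1-3N. DESeq2 called 1 member in LiCl in hcm1-8E against WT and 1 between the mutants, and 1 in each of the interactions of hcm1-8E with WT and of hcm1-3N with hcm1-8E. With libraries or replicates left out, members called for LiCl against control ranged from 0 to 4 in WT, 0 to 2 in hcm1-3N, 0 to 6 in hcm1-8E and 1 to 6 in the mean of strains. In control medium they ranged from 0 to 3 for hcm1-3N against either other strain, in LiCl from 0 to 3 for hcm1-8E against WT and from 0 to 5 between the mutants, and from 0 to 3 for the interactions of hcm1-8E with WT and of hcm1-3N with hcm1-8E. The upper ends came from leaving out replicate 1, and leaving out only replicate 1 of hcm1-8E in LiCl gave 1, 3, 1 and 2 in these comparisons from hcm1-8E against WT in LiCl on. Without replicate 2 or 3 no member was called within any strain. The cause was not tested.

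Counts over all genes moved as well. For LiCl in hcm1-3N edgeR called 645 genes, against 2375 with the block, 1944 without replicate 1, 0 and 2 without replicates 2 and 3, and 1180 with DESeq2. In hcm1-8E the counts were 1842, against 3004, 2952, 95 and 379 in the order of the first 4 of these alternatives, and in WT 1897, against 3056, 2989, 241 and 486. In the mean of strains 3275 were called, against 1788 and 2092 without replicates 2 and 3. On the TPM scale with pseudocount 1 the median of all genes was 0.11 (log2) for LiCl in hcm1-8E, 0.10 for hcm1-8E against WT and -0.12 between the mutants (hcm1-3N over hcm1-8E) in LiCl, against 0.032, 0.023 and -0.025 in the edgeR fit on counts. CLB6 had 19 to 67 counts per library, the lowest of the members.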
